A study of Homo sapiens with 24 samples.

Results

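Matrix metalloproteases, their tissue inhibitors and the urokinase system were followed through 4 RNA-seq experiments on OE33, a human esophageal adenocarcinoma (EAC) cell line. The genes were 10 of the 61860 rows in each count table: MMP1, MMP7, MMP10, MMP13, MMP14, TIMP1, TIMP2, PLAU, PLAUR and PLAT. They were chosen by symbol, with earlier results of these data known. Shares over all genes tested are given beside their counts as a scale, not as a test. Each gene matched 1 Ensembl identifier, and all 10 passed the filter on low counts in all 4 experiments. The study asked how a high-fat diet acts on EAC, and it followed an order from the diet to the E3 ubiquitin ligase TRIM15, the transcription factor YY2 and the mitochondrial protein FOXRED1. It proposes that TRIM15 causes loss of YY2 protein and that YY2 raises FOXRED1 transcription. Under that proposal, gain of TRIM15 and loss of YY2 or FOXRED1 act on the same side. The proposal was not tested here. Each experiment held 3 treated and 3 control libraries, 24 in all.

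In the xenograft experiment, male BALB/c nude mice, which lack T cells but keep other host cells, were 4 weeks old at purchase. They received a high-fat diet (HFD, 35% fat) or a normal diet (ND, 4.3% fat) for 8 weeks before OE33 cells were injected under the skin, and the tumors grew for 21 days. The other experiments used cultured OE33 cells. HA-TRIM15 cells carried a plasmid for tagged TRIM15 and were compared with empty vector (EV) cells at 48 h after transfection. The shYY2 and shFOXRED1 cells carried short hairpin RNAs and were each compared, at 72 h, with their own shControl cells. The labels do not say which hairpin was sequenced or whether each xenograft library came from a separate tumor. All cells derive from 1 line.

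Library totals ranged from 14299807 to 45994561 counts. TRIM15 had 111 to 181 counts in HA-TRIM15 libraries and 0 in EV, YY2 had 11 to 12 counts in shYY2 against 40 to 46 in its control, and FOXRED1 had 129 to 207 counts in shFOXRED1 against 254 to 322. TRIM15 also had 12 to 24 counts in HFD xenografts and 0 to 1 in ND. All 8 epithelial markers were above 10 counts in every library. In the human gene counts of the xenografts, PTPRC (leukocytes) and PECAM1 (endothelium) had 0 to 3 counts, DCN (fibroblasts) 0 to 1 and ADIPOQ (adipocytes) 0. Other markers of these lists were counted: COL1A1 at 491 to 1589, ITGAM at 159 to 556, CD14 at 104 to 231, ACTA2 at 39 to 93 and PLIN4 at 39 to 88. The host is mouse, and how mouse reads were treated is not given in the sources used here, so these counts do not show how many host cells the tumors held.

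Matrix metalloproteases (MMPs) are zinc-dependent enzymes that cut collagens, proteoglycans and other matrix proteins. Most are secreted as inactive proenzymes and are held in check by the TIMP proteins, which bind the active site. In the urokinase system, urokinase (PLAU) bound to its receptor (PLAUR) on the cell surface turns plasminogen into plasmin, which cuts fibrin and can activate several proMMPs. In carcinomas these proteases are known for their part in invasion. Stromal cells often make many of them, whereas MMP7 is typical of glandular epithelium.

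**Figure D1:**
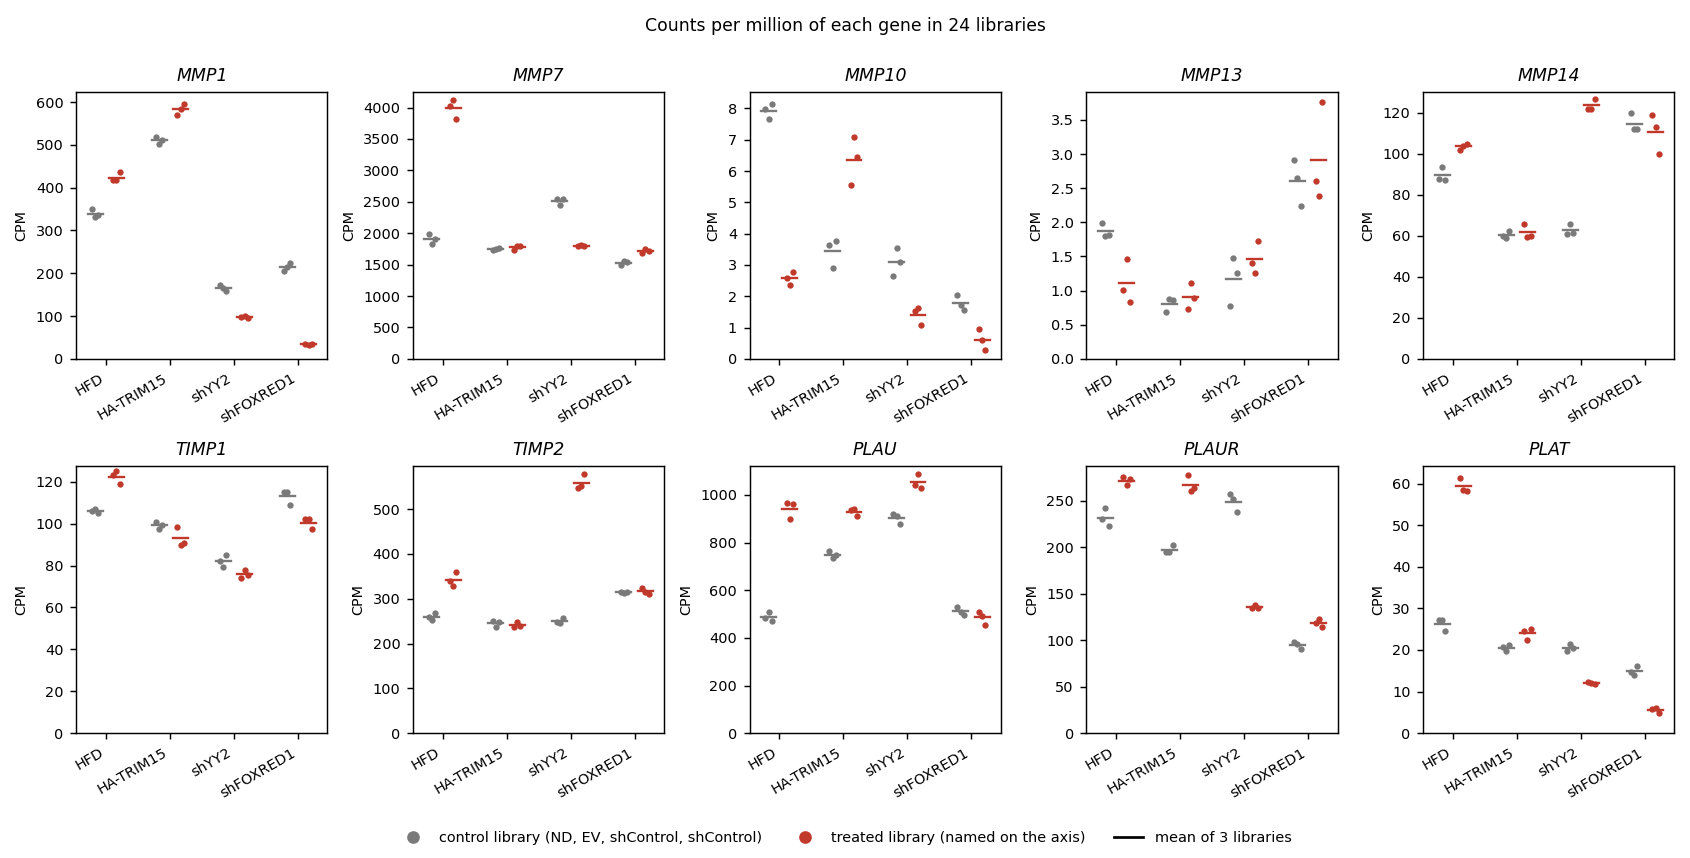
Counts scaled to a common library total (CPM, y axes from 0) of each gene in the 24 libraries, with control libraries in gray, the treated libraries named on the x axis in red, and lines at the means of 3 libraries. MMP7 stood at 3990 CPM in HFD against 1900 CPM in ND, and MMP1 at 34.4 CPM in shFOXRED1 against 215 CPM in its control.

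Most of the MMP transcript in these cells was MMP7, which encodes matrilysin, a small secreted enzyme with a broad range of substrates. Compared per transcript length (TPM, counts divided by union exon length and scaled to the same total in every library), MMP7 made up 70.7% to 94.7% of the summed level of the 5 MMP genes in every library. MMP1 (interstitial collagenase) made up 2.11% to 27.7%. MMP14, the membrane-anchored MMP that activates proMMP2, ranged from 59.9 to 126 TPM between group means. MMP10 (stromelysin-2) stayed between 1.60 and 20.3 TPM, and MMP13 (collagenase-3) between 1.26 and 4.83 TPM. Of the other MMP genes, MMP2 (gelatinase A) had 0 to 2 counts per library, MMP3 (stromelysin-1) 0 to 7 and MMP9 (gelatinase B) 0 to 20. Not all of them were low: MMP15, another membrane-anchored MMP, which was picked after its values were seen, had group means from 153 CPM in HA-TRIM15 to 400 CPM in shFOXRED1. It was higher in HFD (log2 fold change 0.45) and shYY2 (0.88), lower in HA-TRIM15 (-0.19) and not called in shFOXRED1 (edgeR adjusted p = 2.94e-08, 1.45e-12, 0.0232 and 0.17). The HA-TRIM15 call was lost with a library left out (edgeR adjusted p up to 0.0973).

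The 4 secreted MMP genes lie in 1 cluster on the minus strand of chromosome 11 (GRCh38, GENCODE 29): MMP7 at chr11:102520508-102530753, MMP10 at chr11:102770503-102780628, MMP1 at chr11:102789920-102798160 and MMP13 at chr11:102942995-102955734. MMP14 lies at chr14:22836557-22849027 and TIMP1 at chrX:47582313-47586789. TIMP2 lies at chr17:78852977-78925387, PLAU at chr10:73909177-73917497 and PLAUR at chr19:43646095-43670547. RefSeq promoter windows (GRCh38.p14) of 6 of the 10 genes were searched: MMP7, MMP10, MMP14, TIMP1, PLAU and PLAUR. Those of MMP1, MMP13, TIMP2 and PLAT were not searched, so nothing is said about their elements. The 250 bases before the start of MMP7, MMP10 and PLAUR are shown, since MMP7 and MMP10 went opposite ways in the xenografts and PLAUR changed in all 4 experiments. Only these 3 of the 6 genes held the AP-1 element TGANTCA, which reads the same on both strands and is marked in capitals.
MMP7 (chr11:102530748-102530997, minus strand): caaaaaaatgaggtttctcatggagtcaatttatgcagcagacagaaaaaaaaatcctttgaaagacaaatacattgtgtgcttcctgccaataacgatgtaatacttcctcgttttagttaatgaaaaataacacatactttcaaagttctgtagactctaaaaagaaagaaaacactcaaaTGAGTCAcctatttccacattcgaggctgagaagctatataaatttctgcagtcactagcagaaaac
MMP10 (chr11:102780629-102780878, minus strand): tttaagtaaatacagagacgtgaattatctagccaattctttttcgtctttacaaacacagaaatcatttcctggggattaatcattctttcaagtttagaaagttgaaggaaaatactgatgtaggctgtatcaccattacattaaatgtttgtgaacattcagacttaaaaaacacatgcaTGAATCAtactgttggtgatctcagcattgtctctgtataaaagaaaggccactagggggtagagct
PLAUR (chr19:43670170-43670419, minus strand): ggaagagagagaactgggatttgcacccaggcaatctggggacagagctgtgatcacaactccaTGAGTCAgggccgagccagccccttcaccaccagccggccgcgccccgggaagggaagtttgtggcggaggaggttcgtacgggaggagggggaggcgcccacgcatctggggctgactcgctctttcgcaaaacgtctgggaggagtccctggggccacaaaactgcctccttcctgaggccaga
In both MMP promoters the element began 67 bases before the start, and in PLAUR it began 186 bases before it. An element of these letters was present in 6.57% of 35116 RefSeq windows of this length. The MMP7 and MMP10 windows also held a TATA box, searched as TATAAA on both strands and present in 10.7% of windows. The PEA3 element, searched as AGGAAG on both strands and present in 28.7% of windows, was found in 4 of the 6 genes. These were MMP7, TIMP1, PLAU and PLAUR. A core of the motif bound by YY factors, searched as AANATGGC on both strands and present in 3.86% of windows, was not found in the windows of the 6 genes.

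To examine the effect of the diet, HFD xenografts were compared with ND xenografts. All 10 genes changed, 8 of them higher and 2 lower in HFD, by the quasi-likelihood test of edgeR (Benjamini-Hochberg adjusted p under 0.05 over all genes), while 49.5% of the 17012 genes tested were called. MMP7, PLAU and PLAT were about 2-fold higher, whereas MMP10 was 3.02-fold lower and MMP13 1.77-fold lower. At a fold change of 1.5 or more, these 5 genes remained, against 12.0% of the genes tested. None of the 10 genes overlapped between the diets, and neither did 56.2% of all tested genes. In bulk RNA, fewer cells of a type and less RNA per cell cannot be told apart.

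On the CPM scale, which divides counts by the effective library total, MMP7 stood at 4020, 4120 and 3820 in the 3 HFD libraries and at 1980, 1830 and 1900 in the 3 ND libraries. Every HFD library lay above every ND library, with a log2 fold change of 1.07 ± 0.037 (SE, n = 3 libraries per group; edgeR adjusted p = 1.72e-12). MMP7 alone took 0.368% to 0.396% of all counts in HFD libraries and 0.191% to 0.205% in ND libraries. MMP10, another gene of the cluster, had 59, 43 and 106 counts in HFD and 213, 366 and 175 counts in ND, or 2.57 ± 0.217 against 7.93 ± 0.246 CPM (SD). It went the other way from MMP7, with a log2 fold change of -1.60 ± 0.11 (SE; edgeR adjusted p = 3.95e-09). MMP13 was also low in count and lower in HFD, at 23, 27 and 32 counts against 53, 86 and 39 (log2 fold change -0.82 ± 0.20, edgeR adjusted p = 0.00311).

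The collagenase gene MMP1 changed less. It stood at 417, 418 and 436 CPM in HFD and at 350, 331 and 336 CPM in ND, 1.25-fold higher in HFD (edgeR adjusted p = 1.3e-06). MMP14 was 1.15-fold higher, at 104 ± 1.17 against 89.7 ± 3.39 CPM (edgeR adjusted p = 0.000283). The inhibitors rose as well. TIMP2, which inhibits MMPs and also helps MMP14 to activate proMMP2, stood at 343 ± 15.1 against 260 ± 8.53 CPM (1.32-fold, edgeR adjusted p = 3.35e-07). TIMP1, the more broadly inducible inhibitor, stood at 122 ± 3.24 against 106 ± 0.959 CPM (1.15-fold, edgeR adjusted p = 2e-04). Per length, the 5 MMP genes summed to 14.0 ± 0.491 times the sum of TIMP1 and TIMP2 in HFD tumors and 8.83 ± 0.289 times in ND tumors (SD), and the ranges of 13.4 to 14.4 and 8.61 to 9.15 did not overlap.

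In the urokinase system, both plasminogen activators were higher in HFD tumors. PLAU stood at 965, 900 and 961 CPM in HFD and at 484, 508 and 469 CPM in ND (log2 fold change 0.95 ± 0.039, edgeR adjusted p = 1.18e-11). PLAT, the tissue plasminogen activator, stood at 61.4, 58.4 and 58.1 CPM against 27.2, 27.1 and 24.6 CPM (log2 fold change 1.16 ± 0.049, edgeR adjusted p = 1.77e-11). For both genes the lowest HFD library was well above the highest ND library. The receptor gene PLAUR differed less, at 272 ± 3.96 against 232 ± 9.92 CPM (1.17-fold, edgeR adjusted p = 9.02e-05). The per-length ratio of PLAU to PLAUR was 5.24 ± 0.126 in HFD and 3.17 ± 0.0102 in ND (SD).

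**Figure D2:**
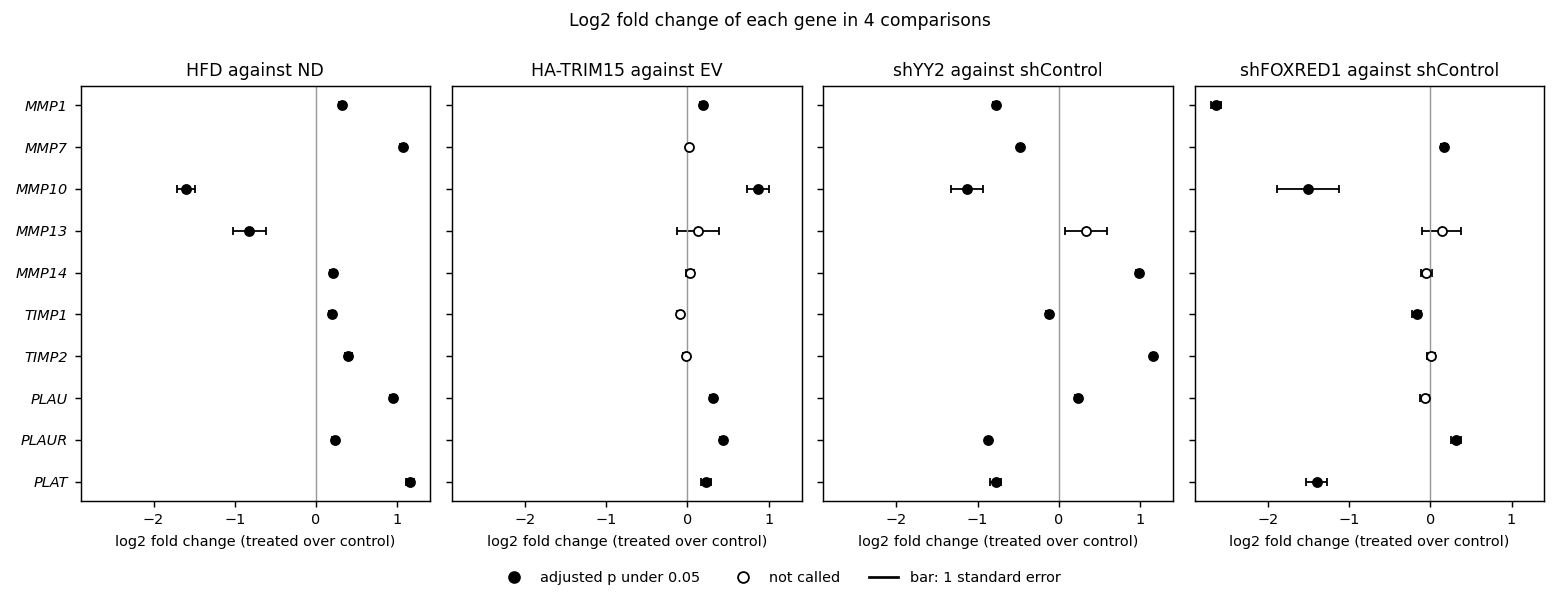
Log2 fold change of treated over control libraries (x axis) for each of the 10 genes (y axis) in the 4 comparisons, with 1 standard error as the bar; filled points passed an adjusted p of 0.05 and open points did not. The leftmost value is MMP1 in shFOXRED1 cells, at -2.64, and MMP10 is below 0 in every panel except that of HA-TRIM15, where it is at 0.87.

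Other genes of pericellular proteolysis also differed between the diets. Of 15 further genes of the plasminogen system, 12 could be tested, of which 9 were higher and 3 lower in HFD. Over all genes tested, 25.6% were higher and 23.9% lower. ANXA2, a cell-surface receptor for plasminogen and PLAT, stood at 1720 ± 27.9 against 640 ± 4.25 CPM (SD; log2 fold change 1.43, edgeR adjusted p = 2.07e-14). SERPINB2, which encodes the urokinase inhibitor PAI-2, was higher at a log2 fold change of 0.55 (edgeR adjusted p = 1.46e-08), whereas SERPINE2, another inhibitor of these activators, was lower (-0.43, edgeR adjusted p = 5.09e-07). So was SERPINI1, which encodes neuroserpin, an inhibitor of PLAT (-0.87, edgeR adjusted p = 0.000974). Among the other MMPs, 7 were tested, with 4 higher and 1 lower; MMP9 had 12 to 20 counts in HFD and 4 to 13 in ND (log2 fold change 1.34, edgeR adjusted p = 0.00389).

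In the list of ADAM and ADAMTS proteases, which shed membrane proteins or cut proteoglycans, 6 of 11 genes tested were higher and 2 lower. The shares over all genes tested were 25.6% and 23.9%. The proteoglycanase ADAMTS9 had a log2 fold change of 1.62, the sheddase ADAM9 of 0.89 and ADAMTSL4, a protease-like protein of microfibrils, of 0.91 (edgeR adjusted p = 1.37e-12, 7.38e-12 and 1.69e-06). ADAM12 was lower at -0.93 (edgeR adjusted p = 0.00272), as were the membrane serine protease gene TMPRSS11E at -1.28 (edgeR adjusted p = 0.000377) and SPOCK1, a matrix proteoglycan gene of the list of further metalloprotease inhibitors, at -0.36 (edgeR adjusted p = 0.0259). The SPOCK1 call was lost with DESeq2 (adjusted p = 0.151) and with a library left out (edgeR adjusted p up to 0.117). Of the 90 further genes, 65 were tested, with 36 higher, 14 lower and a median log2 fold change of 0.18, beside -0.01 over all genes tested. The share called was 76.9%, beside 49.5% of all genes tested. The 7 neutrophil markers summed to 30.7 to 31.9 CPM in HFD and 7.64 to 8.61 in ND through S100A8 and S100A9, while each of the other 5 had at most 3 counts. The 10 stromal markers summed to 25.6 to 29.4 CPM against 33.0 to 35.7, most of it COL1A1. The part of these lists in the results was not tested.

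To examine the gain of TRIM15 in culture, HA-TRIM15 cells were compared with EV cells. PLAUR, PLAU, MMP1, MMP10 and PLAT, 5 of the 10 genes, were higher in HA-TRIM15 cells by edgeR, where 22.1% of the 15745 genes tested were called, 12.5% higher and 9.53% lower. None was called lower by edgeR or DESeq2, and 1, TIMP1, was lower at an unadjusted p under 0.05. The 5 called genes did not overlap between the groups, as for 37.7% of all tested genes. Only MMP10 also passed a fold change of 1.5, against 1.88% of all tested genes. MMP7, the gene with the highest level, did not pass the test.

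The whole urokinase group was higher. PLAUR stood at 278, 260 and 264 CPM in HA-TRIM15 libraries and at 195, 195 and 202 CPM in EV libraries (log2 fold change 0.44 ± 0.035, edgeR adjusted p = 5.87e-07). PLAU stood at 935, 940 and 910 CPM against 763, 735 and 747 CPM (0.31 ± 0.028, edgeR adjusted p = 2.59e-06). Neither gene overlapped between the groups, and PLAUR changed somewhat more than its ligand, so that the per-length ratio of PLAU to PLAUR was 5.25 ± 0.198 in HA-TRIM15 and 5.73 ± 0.169 in EV (SD), with ranges of 5.08 to 5.47 and 5.59 to 5.92. PLAT had a smaller difference, at 24.0 ± 1.41 against 20.5 ± 0.723 CPM (edgeR adjusted p = 0.021). Its call was lost with DESeq2 (adjusted p = 0.0707) and when HA-TRIM15 replicate 3 or EV replicate 1, 2 or 3 was left out (edgeR adjusted p from 0.055 to 0.0976).

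Of the 5 MMP genes of the set, MMP10 had the largest log2 fold change. It had 114, 109 and 102 counts in HA-TRIM15 and 74, 66 and 101 counts in EV, or 6.36 ± 0.770 against 3.44 ± 0.477 CPM (log2 fold change 0.87 ± 0.14, edgeR adjusted p = 0.000445). MMP1 stood at 569, 583 and 596 CPM against 519, 501 and 511 CPM (1.14-fold, edgeR adjusted p = 0.000404). MMP7 was 1780 ± 29.5 in HA-TRIM15 and 1750 ± 16.3 CPM in EV, a log2 difference of 0.02 ± 0.025 that did not pass (edgeR adjusted p = 0.646). MMP13, MMP14 and TIMP2 had edgeR adjusted p of 0.81, 0.648 and 0.706. TIMP1 stood at 93.1 ± 4.69 against 99.3 ± 1.57 CPM and was not called (edgeR adjusted p = 0.134), but without HA-TRIM15 replicate 1 it was lower at a log2 fold change of -0.14 (edgeR adjusted p = 0.00406).

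Among the further genes, 61 were tested, with 9 higher and 8 lower, or 27.9% called beside 22.1% of all genes tested. SERPINB2, the gene for PAI-2, which inhibits urokinase, was 227 ± 6.73 in HA-TRIM15 against 119 ± 1.55 CPM in EV (log2 fold change 0.93, edgeR adjusted p = 1.46e-10). TMPRSS2, a membrane serine protease gene, was higher at 0.42, and ADAM9 at 0.20 (edgeR adjusted p = 1.64e-05 and 0.000359). The MMP genes MMP20 and MMP19 were higher at 0.91 and 0.78 from means under 3 CPM (edgeR adjusted p = 0.0127 and 0.0124). ADAMTS15, the lysosomal protease gene CTSD, the prostasin gene PRSS8 and ENO1, whose product also binds plasminogen, were lower at -0.34, -0.18, -0.18 and -0.12 (edgeR adjusted p from 0.00398 to 0.0261). With a library left out, the calls of ADAMTS15, PRSS8, MMP19, MMP20 and ENO1 were lost (edgeR adjusted p up to 0.121, 0.102, 0.0658, 0.061 and 0.0513), and that of ADAMTS15 also with DESeq2 (adjusted p = 0.0679).

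To examine the loss of YY2, shYY2 cells were compared with their shControl cells. Of the 10 genes, 3 were higher and 6 lower by edgeR, where 75.0% of the 16006 genes tested were called, 36.8% higher and 38.1% lower. These 9 genes did not overlap between the groups, as for 76.3% of all tested genes. Besides PLAU, the higher genes were TIMP2 and MMP14, both about 2-fold. The lower genes were MMP1, MMP7, MMP10, TIMP1, PLAUR and PLAT. At a fold change of 1.5 or more, MMP1, MMP10, MMP14, TIMP2, PLAUR and PLAT remained, against 39.6% of genes tested.

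TIMP2 stood at 547, 551 and 579 CPM in shYY2 libraries and at 247, 246 and 256 CPM in shControl libraries (log2 fold change 1.16 ± 0.031, edgeR adjusted p = 2.29e-14). MMP14, its partner on the cell membrane, stood at 122, 122 and 127 CPM against 61.0, 65.9 and 61.2 CPM (0.99 ± 0.038, edgeR adjusted p = 1.38e-12). Both genes had their highest mean of the 8 groups in shYY2 cells on the CPM scale. TIMP1 went the other way from TIMP2 by a small amount, at 75.8 ± 2.09 against 82.2 ± 2.80 CPM (edgeR adjusted p = 0.01). That call was lost with DESeq2 (adjusted p = 0.0554), in the fit of all 24 libraries (edgeR adjusted p = 0.082) and without shYY2 replicate 1 (edgeR adjusted p = 0.0547).

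The secreted MMP genes fell, apart from MMP13. MMP1 stood at 96.8, 99.1 and 95.8 CPM in shYY2 and at 172, 165 and 159 CPM in shControl (log2 fold change -0.77 ± 0.035, edgeR adjusted p = 1.03e-11). MMP7 stood at 1800, 1810 and 1800 CPM against 2550, 2450 and 2550 CPM (-0.48 ± 0.024, edgeR adjusted p = 3.52e-11). Each group of 3 was tight, and the groups were far apart. MMP10 had 25, 27 and 20 counts against 48, 60 and 61 (-1.13 ± 0.20, edgeR adjusted p = 8.55e-05), and MMP13 had 21 to 32 counts against 14 to 25 and was not called (edgeR adjusted p = 0.249). Per length, the 5 MMP genes summed to 5.76 ± 0.137 times the 2 TIMP genes in shYY2 cells and to 12.1 ± 0.257 times in shControl cells (SD), with ranges of 5.62 to 5.89 and 11.9 to 12.4.

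The receptor and its ligand moved in opposite directions. PLAUR stood at 135, 138 and 135 CPM in shYY2 and at 257, 252 and 238 CPM in shControl (log2 fold change -0.87 ± 0.033, edgeR adjusted p = 1.38e-12). PLAU stood at 1040, 1090 and 1030 CPM against 921, 912 and 876 CPM (0.23 ± 0.029, edgeR adjusted p = 3.1e-06). The per-length ratio of PLAU to PLAUR was thus 11.7 ± 0.237 in shYY2 and 5.48 ± 0.0665 in shControl. PLAT fell from 19.7, 21.4 and 20.5 CPM in shControl to 12.2, 12.0 and 11.8 CPM in shYY2 (-0.78 ± 0.070, edgeR adjusted p = 5.72e-08).

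**Figure D3:**
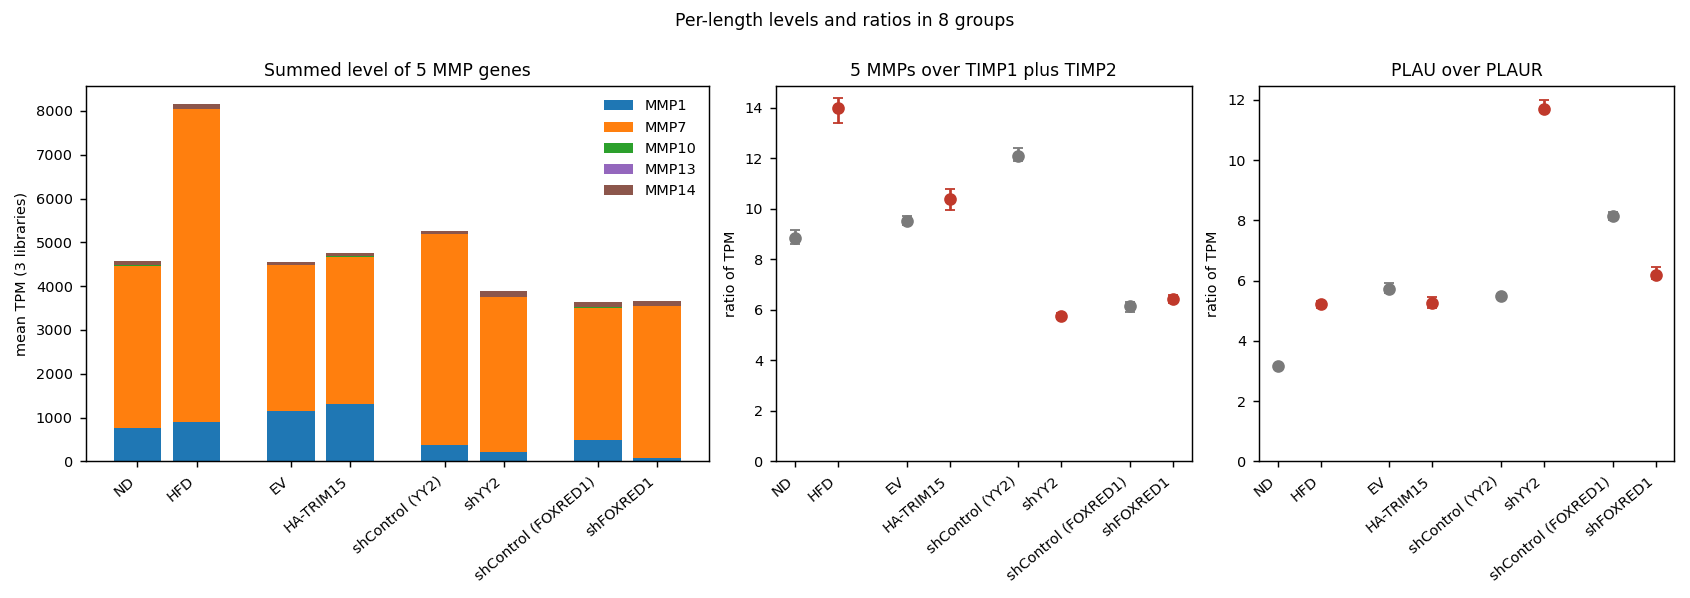
Left, mean TPM of the 5 MMP genes stacked in each of 8 groups (y axis from 0). Middle and right, ratio of the 5 MMP genes to TIMP1 plus TIMP2 and of PLAU to PLAUR, with the mean of 3 libraries as the point, the lowest and highest library as the bar, controls in gray and treated groups in red. The MMP to TIMP ratio was 14.0 in HFD and 5.76 in shYY2, and PLAU to PLAUR reached 11.7 in shYY2.

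Of the 12 further plasminogen system genes tested in shYY2 cells, 5 were higher and 5 lower. This share called, 83.3%, was near the 75.0% of all genes tested. SERPINB2 had the largest change of the group, at 8.13 ± 0.454 against 71.4 ± 0.754 CPM (log2 fold change -3.13, edgeR adjusted p = 3.46e-16). LRP1, the receptor that clears complexes of activators and their inhibitors, and MRC2, which takes up collagen and associates with PLAUR, were higher at 1.81 and 1.38 (edgeR adjusted p = 2.19e-14 and 5.23e-08). In the list of lysosomal proteases and their inhibitors, 8 of 10 genes tested were higher and 2 lower, beside 36.8% and 38.1% of all genes. Among the higher genes was CTSK, a collagen-cutting cathepsin, at 1.84 (edgeR adjusted p = 7.72e-10).

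Of the membrane serine proteases, kallikreins and inhibitors, 10 of 15 were higher and 4 lower, beside 36.8% and 38.1% of all genes tested. The kallikrein genes KLK6 and KLK5 were lower at -1.26 and -1.11 (edgeR adjusted p = 6.64e-13 and 1.39e-08). Of the other kallikreins, named after their values were seen, KLK10 was lower at -0.99 (edgeR adjusted p = 1.98e-10). KLK7 and KLK11 were higher at 0.85 and 0.55, and KLK8 was not called (edgeR adjusted p = 7.28e-06, 0.000304 and 0.469). ADAMTS9 fell by 2.05 on the log2 scale, and ADAMTSL4 rose by 1.61 (edgeR adjusted p = 1.43e-14 and 7.12e-09). The inhibitor gene TIMP4 fell, at 1.43 ± 0.599 against 3.74 ± 0.268 CPM, while SPOCK2 rose by 1.63 from 0.483 CPM (edgeR adjusted p = 4.12e-05 and 5.87e-05). Over the 63 further genes tested, 36 were higher and 17 lower, with a median of 0.24 beside -0.01 over all genes tested. The share called was 84.1%, beside 75.0% of all genes tested. The 10 stromal markers summed to 44.8 to 47.0 CPM in shYY2 and 12.1 to 13.8 CPM in shControl, where ACTA2 and COL1A1 were the markers that could be tested and both rose, and the 6 adipocyte markers to 6.78 to 7.79 against 0.945 to 1.31 CPM through PLIN1 and PLIN4. These are cultured cells of 1 line, and the part of these genes in the results was not tested.

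To examine the loss of FOXRED1, shFOXRED1 cells were compared with their shControl cells. MMP1 fell 6.25-fold, and PLAT and MMP10 fell as well, while PLAUR and MMP7 rose by at most 1.25-fold. In all, 2 of the 10 genes were higher and 4 lower by edgeR, where 36.6% of the 15730 genes tested were called. These 6 genes did not overlap between the groups, as for 46.7% of all tested genes. At a fold change of 1.5 or more, MMP1, MMP10 and PLAT remained, against 10.8% of genes tested.

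MMP1 had 637, 613 and 507 counts in shFOXRED1 libraries and 3747, 3243 and 3285 counts in shControl libraries. In CPM, the shFOXRED1 libraries stood at 35.3, 33.2 and 34.7 and the shControl libraries at 206, 215 and 223, a 6.25-fold difference (log2 fold change -2.64 ± 0.063, edgeR adjusted p = 1.67e-14). It ranked 1 by p-value among the 15730 genes tested and 3 by size among the 3102 genes called lower. Per length, MMP1 made up 2.11% to 2.31% of the 5 MMP genes in shFOXRED1 cells and 13.5% to 14.1% in shControl cells.

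Of the other genes of the set in the cluster, MMP10 also fell, MMP7 was higher and MMP13 was not called. MMP7 stood at 1690, 1750 and 1710 CPM against 1490, 1560 and 1540 CPM, slightly higher in shFOXRED1 (log2 fold change 0.17 ± 0.039, edgeR adjusted p = 0.00253). MMP10, which lies next to MMP1, fell from 37, 26 and 23 counts in shControl to 17, 11 and 4 in shFOXRED1 (-1.51 ± 0.38, edgeR adjusted p = 0.00484), and these few counts give the value a wide error. MMP13 had 44 to 55 counts against 33 to 53 and was not called (edgeR adjusted p = 0.683). MMP14 and TIMP2 were not called either (edgeR adjusted p = 0.6 and 0.887). TIMP1 stood at 101 ± 2.72 against 113 ± 3.57 CPM (edgeR adjusted p = 0.0288), a call that was lost without shFOXRED1 replicate 1 or 2 or without shControl replicate 1 or 2 (edgeR adjusted p from 0.058 to 0.117). The per-length ratio of MMP to TIMP genes was 6.44 ± 0.159 in shFOXRED1 and 6.15 ± 0.211 in shControl (SD), with overlapping ranges of 6.26 to 6.57 and 5.91 to 6.32.

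PLAT fell too. It had 107, 113 and 71 counts in shFOXRED1 and 269, 210 and 239 counts in shControl, or 5.63 ± 0.679 against 15.0 ± 1.17 CPM (log2 fold change -1.40 ± 0.13, edgeR adjusted p = 3.03e-07). PLAUR rose from 98.6, 95.7 and 90.4 CPM to 119, 123 and 114 CPM (0.32 ± 0.060, edgeR adjusted p = 0.000393). PLAU, at 486 ± 27.3 against 511 ± 17.7 CPM, was not called (edgeR adjusted p = 0.292), and the per-length ratio of PLAU to PLAUR was 6.18 ± 0.238 in shFOXRED1 and 8.14 ± 0.131 in shControl.

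Of the 13 further plasminogen system genes tested, 10 were lower and 1 higher in shFOXRED1 cells, with a median log2 fold change of -0.66 beside 0.01 over all genes tested. Over all genes tested, 19.7% were lower and 16.8% higher. Genes of plasminogen activator inhibitors fell, SERPINB2 by 2.20 on the log2 scale, from 20.7 ± 0.458 to 4.53 ± 0.896 CPM, and SERPINE2 by 1.42 (edgeR adjusted p = 2.31e-09 and 7.01e-09). S100A10, a subunit of a cell-surface plasminogen receptor, fell by 1.09 (edgeR adjusted p = 3.77e-09). Of the membrane serine proteases, kallikreins and inhibitors, 7 of 14 were higher, among them PRSS8 at 0.85, TMPRSS4 at 0.83, PRSS22 at 0.73 and TMPRSS2 at 0.68 (edgeR adjusted p from 1.19e-08 to 5.15e-07). The 4 lower genes of that list, named after their values were seen, were the kallikreins KLK5 at -1.07, KLK11 at -0.70, KLK7 at -0.65 and KLK6 at -0.20 (edgeR adjusted p from 0.000615 to 0.00498). Not all kallikreins fell: KLK10 was higher at 0.36, and KLK8 was not called (edgeR adjusted p = 0.001 and 0.457). The inhibitor gene TIMP4 fell by 1.51 and CTSK rose by 0.80 (edgeR adjusted p = 0.000904 and 0.00588).

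**Figure D4:**
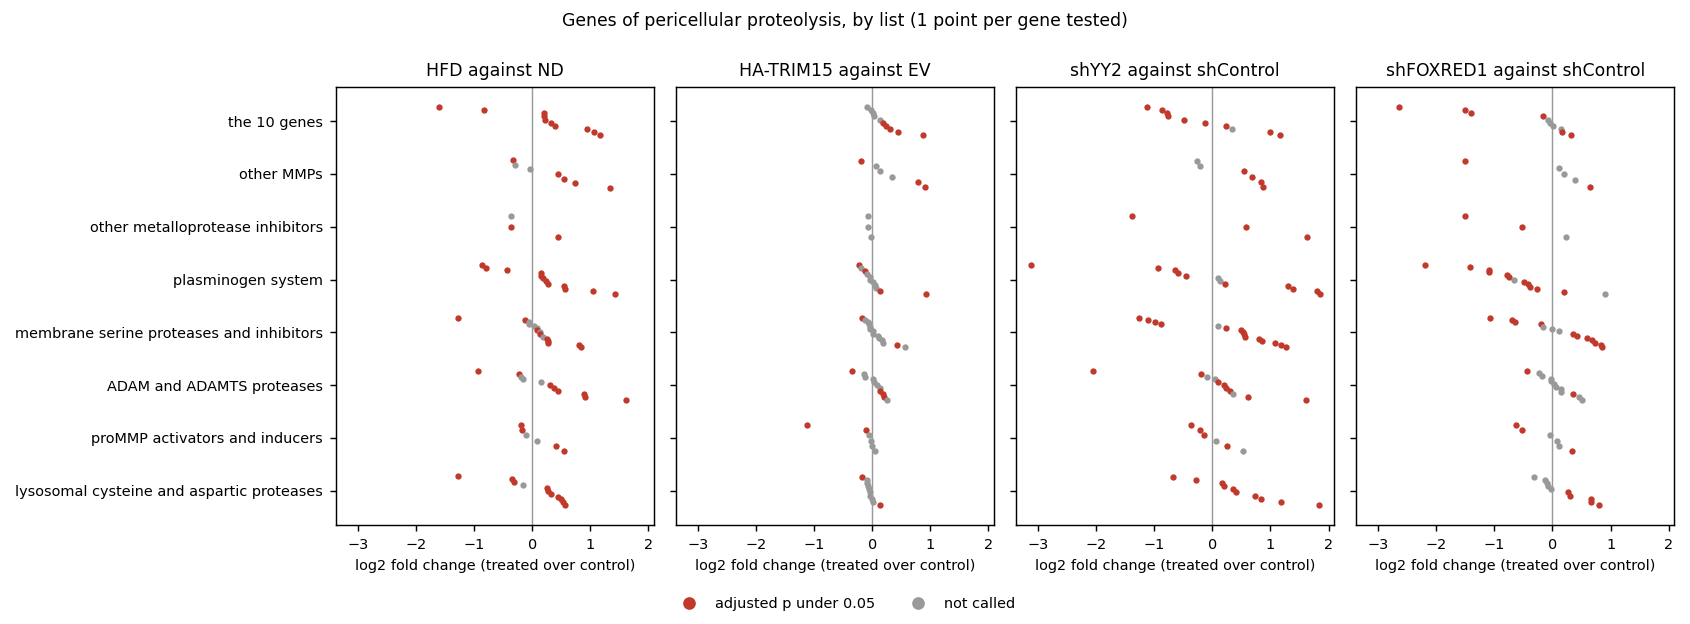
Log2 fold change (x axis) of the 10 genes and of every tested gene in 7 further lists (y axis), 1 point per gene and 1 panel per comparison, with genes past an adjusted p of 0.05 in red and the rest in gray. In shFOXRED1 cells 10 of 13 plasminogen system genes were lower (19.7% of all genes tested), and in HFD tumors 9 of 12 were higher (25.6% of all genes tested).

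Set side by side, MMP1, MMP10, PLAUR and PLAT were called in all 4 comparisons, and none of the 4 genes had the same sign throughout. MMP1 and PLAT were higher in HFD and HA-TRIM15 and lower in shYY2 and shFOXRED1. PLAU was higher in HFD, HA-TRIM15 and shYY2 and not called in shFOXRED1. MMP14 and TIMP2 were higher in HFD and shYY2 and not called in the other comparisons. The experiments do not share control libraries.

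Whether effects differed between experiments was tested as an interaction in 1 edgeR fit of all 24 libraries. HFD and HA-TRIM15 differ in more than the treatment, since tumors grew in mice for 21 days and cultured cells were taken at 48 h. Scaled within each experiment, TRIM15 averaged 0.633 CPM in HFD and 8.43 CPM in HA-TRIM15. The part of these in the differences was not tested. Between the HFD and HA-TRIM15 effects, 8 of the 10 genes differed, where 28.4% of 17980 genes did, and 1, MMP10, was also called in opposite directions, where 2.86% of genes were. For MMP7 the log2 fold changes were 1.07 and 0.01, a difference of 1.05 ± 0.046 (edgeR adjusted p = 5.62e-17). The HFD effect was also larger for PLAT and PLAU, by 0.95 ± 0.087 and 0.65 ± 0.055 (edgeR adjusted p = 8.06e-10 and 1.6e-10), whereas that on PLAUR was smaller by a difference of -0.20 ± 0.055 (edgeR adjusted p = 0.00547). The difference for MMP1, 0.14 ± 0.050, passed narrowly (edgeR adjusted p = 0.0394) and was lost in 7 of the 12 fits that left out a library (edgeR adjusted p up to 0.115).

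Between the HA-TRIM15 and shYY2 effects 7 genes differed, where 57.4% of genes did, and MMP1, MMP10, PLAUR and PLAT, 4 of them, were called in opposite directions, where 6.03% of genes were. TIMP2 and MMP14 differed by -1.22 ± 0.052 and -0.99 ± 0.076 (edgeR adjusted p = 1.39e-18 and 1.48e-12), and PLAU had effects of 0.31 and 0.26, whose difference of 0.05 ± 0.055 did not pass (edgeR adjusted p = 0.5). Between the shYY2 and shFOXRED1 effects 7 genes differed, where 55.5% of genes did, and MMP7 and PLAUR, 2 of them, were called in opposite directions, where 10.4% of genes were. MMP1 fell in both, by 0.73 and 2.65 in this fit, a difference of 1.92 ± 0.059 (edgeR adjusted p = 9.23e-22). PLAT also fell in both, with a difference of 0.66 ± 0.12 (edgeR adjusted p = 2.4e-05), and for MMP10 the difference of 0.42 ± 0.36 did not pass (edgeR adjusted p = 0.332).

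**Figure D5:**
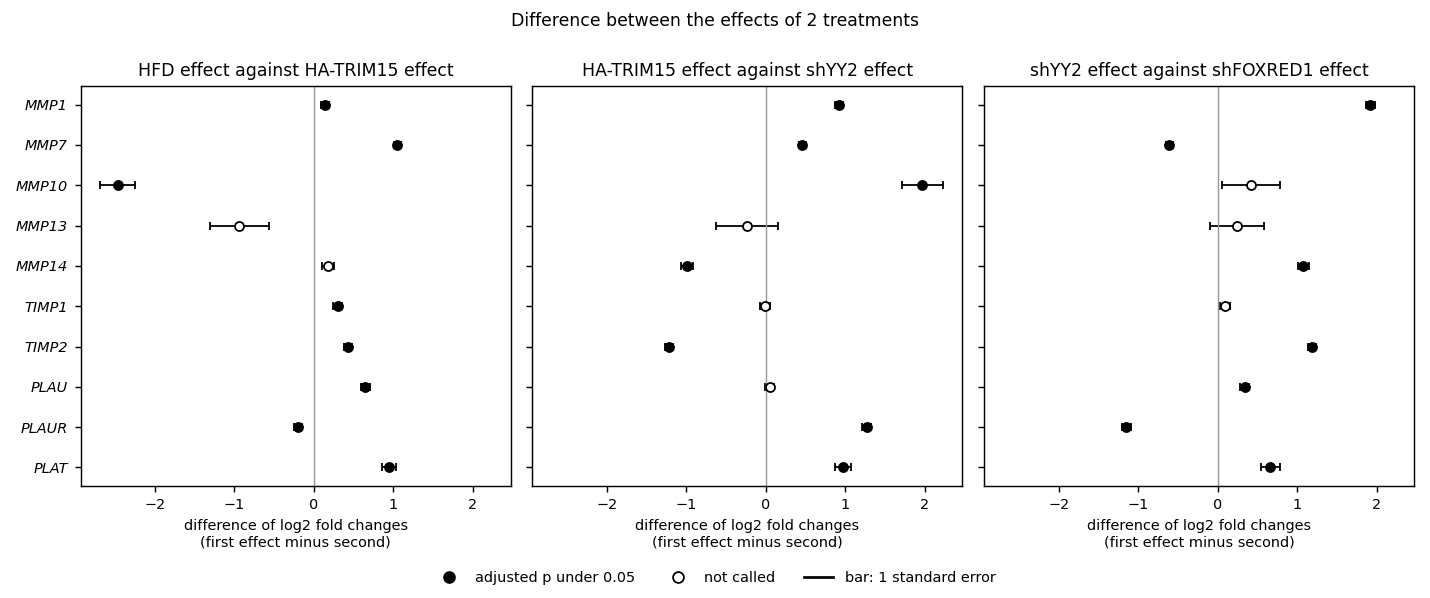
Difference between 2 treatment effects (x axis, first log2 fold change minus second) for each gene (y axis), with 1 standard error as the bar; filled points passed an adjusted p of 0.05 and open points did not. MMP10 has the lowest value, -2.47, between HFD and HA-TRIM15, and MMP1 stands at 1.92 between shYY2 and shFOXRED1.

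Across the 8 groups, levels are confounded with the experiment and are given as a description on a common CPM scale. MMP1 spanned the widest range, 17.6-fold, from 598 ± 13.0 CPM in HA-TRIM15 through 525 in EV, 414 in HFD, 331 in ND, 214 and 164 in the shControl cells of FOXRED1 and YY2 and 98.7 in shYY2 to 33.9 ± 1.01 CPM in shFOXRED1 (SD, n = 3), and no neighbors in that order overlapped. MMP10 spanned 13.0-fold, from 7.74 in ND to 0.596 in shFOXRED1, and PLAT 10.4-fold, from 58.0 in HFD to 5.56 in shFOXRED1. TIMP1 spanned the least, 1.56-fold, from 120 in HFD to 76.9 in shYY2, and 4 of its 7 pairs of neighboring groups overlapped. MMP7 stood highest in HFD at 3900 ± 155 CPM, while ND, shYY2, HA-TRIM15 and EV, between 1860 and 1800 CPM, overlapped with their neighbors. The 2 shControl groups, which differ in experiment, stood at 895 and 508 CPM for PLAU and at 247 and 94.3 CPM for PLAUR.

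Some exons are shared with other annotated genes. PLAU shares 916 exon bases with C10orf55 on the other strand, MMP1 shares 150 with WTAPP1 on the other strand, and TIMP2 shares 198 with CEP295NL on its own strand and 367 with an unnamed transcript on the other. Whether the counting used strand is not given in the sources used here, so reads in those bases may be split between the genes.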

How the data were processed

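RNA-seq libraries of OE33 xenografts and cultured OE33 cells were analyzed, 3 per group. Raw read counts per Ensembl gene, deposited by the authors in 1 table per experiment, carried no normalization. The submitters' processing notes name the builds hg38 and mm10 without a role, and the aligner and counter are not given in the sources used here. The 10 genes and the further lists were chosen with earlier results of these data known.

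Within an experiment, filterByExpr (10 counts at minimum, 15 in total) selected genes, TMM scaled them, and glmQLFit and glmQLFTest (edgeR 4.0.16, R 4.3.3) tested them, with p adjusted by Benjamini-Hochberg over every gene tested. The named-gene rule covered all 10 genes in every experiment. From the further lists it took up to 5 genes per direction with the largest change among those called, averaging 1 CPM or more and without overlap, plus SERPINB2, MMP3 and MMP9; an item that the rule also covers is not reported here. CPM within an experiment used its own TMM factors, levels across groups used factors over all 24 libraries, and TPM used GENCODE 29 exon lengths, held for 94.26% of genes. Differences between effects came from 1 fit of 8 groups. The standard error of a log2 fold change is its size over the root of its F statistic.

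Alternatives were DESeq2 1.42.0 with its Wald test, its size factors in edgeR, no filter, at least 10 counts in every library, a replicate block, the joint fit, a fold change of at least 1.5, and leaving out each library. Pairs of replicates differed beyond counting noise (chi-square per gene 1.47 to 7.94 over 24 pairs). Nothing says that replicates came from separate cultures or, in the xenografts, from separate tumors, so p-values measure only the spread between these libraries. An exact permutation test of 3 against 3 cannot go below 0.1. Promoter windows and motif shares came from RefSeq.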

Additional observations from a re-analysis of the deposited data

Results flagged for a closer look

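In 7 cases the same gene changed in opposite directions in a pair of experiments and the difference itself passed the interaction test (edgeR, Benjamini-Hochberg adjusted, all 24 libraries). Values below are log2 fold changes from that fit.

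MMP10 was lower in HFD tumors (-1.60) and higher in HA-TRIM15 cells (0.87), a difference of -2.47 ± 0.22 (edgeR adjusted p = 2.36e-10). Of all genes, 2.86% had such a reversal between these experiments.

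Between HA-TRIM15 and shYY2 cells, where 6.03% of genes reversed, 4 genes of the set did so. PLAUR went from 0.43 to -0.84, a difference of 1.27 ± 0.057 (edgeR adjusted p = 5.33e-18). MMP1 went from 0.19 to -0.73, a difference of 0.92 ± 0.053, and PLAT from 0.22 to -0.74, a difference of 0.97 ± 0.10 (edgeR adjusted p = 1.76e-15 and 1.14e-09). MMP10 went from 0.87 to -1.10, a difference of 1.97 ± 0.26 (edgeR adjusted p = 1.13e-07). The call of PLAT in HA-TRIM15 cells was itself lost under some alternatives.

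Between shYY2 and shFOXRED1 cells, where 10.4% of genes reversed, the receptor gene PLAUR went from -0.84 to 0.31, a difference of -1.15 ± 0.060, and MMP7 from -0.45 to 0.16, a difference of -0.61 ± 0.046 (edgeR adjusted p = 2.81e-16 and 1.39e-12).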

How the results depend on the processing

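Requiring a fold change of at least 1.5 left 5 of the 10 genes in HFD tumors, 1 in HA-TRIM15 and 3 in shFOXRED1. Leaving out 1 library at a time gave 10 to 10 called genes in HFD, 4 to 6 in HA-TRIM15, 8 to 9 in shYY2 and 5 to 6 in shFOXRED1, and 7 to 9, 7 to 7 and 7 to 7 genes that differed between effects. Of the values of single genes under all alternatives, 941 kept their direction and side of the threshold, 19 lost and 10 gained a call and 15 changed sign. None of the sign changes touched a called value. They were TIMP2 in shFOXRED1 (-0.00 with DESeq2, -0.00 to 0.02 with libraries left out), MMP13 and MMP14 with libraries left out (-0.03 to 0.28 and -0.02 to 0.06 in HA-TRIM15, -0.07 to 0.27 and -0.11 to 0.01 in shFOXRED1), and the TIMP1 difference between HA-TRIM15 and shYY2 (0.00 with RLE size factors, 0.01 without a filter and with DESeq2, and -0.05 to 0.03 with libraries left out). The cause was not tested. At 10 counts in every library MMP10 dropped out of the shFOXRED1 comparison. It also dropped out of the tests of differences between effects, since that fit holds all 24 libraries. The opposite effects on MMP10 flagged above could thus not be tested under this setting.

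With the replicate block, 10, 5, 9 and 6 genes were called in the 4 comparisons, as without it, and no call changed. In the HFD against HA-TRIM15 difference MMP14 gained a call (edgeR adjusted p = 0.0297). Same-numbered treated and control libraries correlated at -0.0275 to 0.097 over all genes tested, which does not pair them. Over genes with at least 100 counts in every library, a limit set after seeing the data, the correlations in shFOXRED1 were 0.227, 0.118 and 0.399. Those in shYY2 were 0.0429, 0.169 and 0.213, and those in HFD and HA-TRIM15 lay between -0.0824 and 0.0931.

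Depth limits MMP13 in all experiments and MMP10 in shFOXRED1, where libraries held 4 to 17 counts. It also limits MMP10 in shYY2, where libraries held 20 to 27 counts.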
